A study of Rattus norvegicus with 14 samples.

Results

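The amino acid response genes measured here were Atf4, Asns, Ddit3, Trib3, Chac1, Atf3, Psat1, Phgdh and Ppp1r15a, the 9 of 10 listed genes whose symbol stood on the array among 26276 gene names. The tenth, Sesn2, was not on the array under that symbol, and a single probe found through the accession of its RefSeq transcript is given beside the others but not counted with them. Each of these 10 genes had 1 probe. Male Wistar rats, 5 to 6 weeks old at the start, ate a standard diet for 1 week and then either a normal-protein diet (NPD, 14% of energy from protein) or an isocaloric high-protein diet (HPD, 55%) for 15 days. Both diets used whole milk protein, and starch and sucrose made up the difference in energy, so more protein and less carbohydrate cannot be told apart. Colonocytes, which are epithelial cells of the colon wall, were released by perfusing the colon with EDTA and washed before RNA extraction, and 7 NPD and 7 HPD rats were analysed with 1 array each.

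When an amino acid is scarce, the kinase Gcn2 (gene Eif2ak4) senses uncharged transfer RNA and phosphorylates the initiation factor eIF2. Phosphorylated eIF2 blocks its exchange factor eIF2B, which slows translation in general while the mRNA of Atf4 is translated more. Other kinases reach the same step from unfolded protein in the endoplasmic reticulum, viral RNA or lack of haem, hence the name integrated stress response. Atf4 then switches on genes that make, import and charge amino acids, and genes that end the response or lead to cell death. Much of the control of Atf4 is at translation, and an array measures mRNA.

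The promoters of the listed genes were searched for the core of the amino acid response element, TGATGNAA, which Atf4 and its partners bind, and for the cyclic AMP response element, TGACGTCA, on both strands. RefSeq promoters (build GRCr8, 250 bases before to 50 after the start) were held for 9 of the 10 genes, all but Atf3. The first motif stood in 3.98% and the second in 1.83% of all 33469 promoters of that length. Among these 9, Chac1 and Trib3 each held the first motif once and Ppp1r15a the second once, and these 3 sequences are printed in the direction of transcription, with the match in capitals, because they show where the letters of the pathway lie. The Chac1 promoter is chr3:126795881-126796180 (plus strand), that of Trib3 chr3:161275484-161275783 (minus strand) and that of Ppp1r15a chr1:105139547-105139846 (minus strand).
Chac1: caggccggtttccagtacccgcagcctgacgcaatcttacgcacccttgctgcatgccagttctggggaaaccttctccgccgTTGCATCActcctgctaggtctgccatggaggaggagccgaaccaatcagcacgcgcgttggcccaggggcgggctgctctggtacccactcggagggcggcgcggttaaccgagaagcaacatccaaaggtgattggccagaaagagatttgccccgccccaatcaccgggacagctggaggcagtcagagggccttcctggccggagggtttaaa
Trib3: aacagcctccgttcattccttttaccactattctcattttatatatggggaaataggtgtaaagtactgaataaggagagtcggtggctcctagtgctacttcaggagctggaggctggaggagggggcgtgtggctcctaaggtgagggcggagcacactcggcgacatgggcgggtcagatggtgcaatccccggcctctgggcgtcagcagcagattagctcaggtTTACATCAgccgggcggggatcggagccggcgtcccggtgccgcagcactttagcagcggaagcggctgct
Ppp1r15a: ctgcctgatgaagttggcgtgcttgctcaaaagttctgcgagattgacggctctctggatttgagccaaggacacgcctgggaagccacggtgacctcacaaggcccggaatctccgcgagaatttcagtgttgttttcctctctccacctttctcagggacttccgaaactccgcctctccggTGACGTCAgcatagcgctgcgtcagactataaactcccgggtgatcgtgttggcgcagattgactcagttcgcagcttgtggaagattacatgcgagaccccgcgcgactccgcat
The matches began 167 bases before the start in Chac1, 21 before it in Trib3 and 66 before it in Ppp1r15a. No match in this window says only that these letters are not in it.

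The mRNA of Atf4 was read by a probe printed in 10 spots on every array, at chr7:118538840-118538899 on the plus strand of rn4, the build of the array design.
Atf4 probe: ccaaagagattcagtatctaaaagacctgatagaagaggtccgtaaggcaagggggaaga
Within an array those 10 spots had a SD between 0.0229 and 0.0414 on the log2 scale, which was small beside the spread between rats. The Asns probe, at chr4:32759136-32759195 on the minus strand of rn4, was printed in 2 spots.
Asns probe: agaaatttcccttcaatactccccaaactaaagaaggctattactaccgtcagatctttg
Every member's probe, and that of Sesn2, was well above background on all 14 arrays and saturated on none.

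Values below are log2 signals relative to the median probe of the same array, and the level of a gene cannot be set against that of another gene. The arrays lay on 2 slides, slide 1 with 4 NPD and 3 HPD arrays and slide 2 with 3 NPD and 4 HPD arrays, and slide changed 12164 of 30367 probes. For this reason each diet difference is also given with slide as a block and within each slide. Slide was inferred from the scanner's barcode and array position, because the sample labels do not name it. The scan names also differed in form between the 2 slides, so scan run cannot be told apart from slide. The median net signal of the HPD arrays (89.7 to 129.5) was below that of the NPD arrays (113.5 to 179.3), with an exact permutation p of 0.00408 that was 0.00245 when slides were kept intact, and its part in the results was not tested.

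None of the 9 members passed the test between the diets. All 9 had a higher mean on the HPD, by between 0.03 and 0.45 on the log2 scale with a median of 0.28. Over all 30367 probes the median difference was 0.11, 64.2% of probes were higher on the HPD, and limma called 17 probes, or 0.0560%, at a Benjamini-Hochberg q-value below 0.1, all higher. Over the probes well above background on every array of a group the median difference was 0.05 and 56.8% were higher. The count of 17 called probes was 9 without NPD replicate 4 or 6, 10 without HPD replicate 4 or 5, 11 without NPD replicate 2, 28 without HPD replicate 6 and 151 without HPD replicate 1. It depended far more on the processing, with 5142 probes (16.9%) called with normexp background correction. With the table of the authors and slide as a block, 2767 features (10.5%) were called. At an unadjusted p below 0.05 stood 1 member, Chac1, against 11.4% of all probes. The number of members with a higher HPD mean fell from 9 to 8 with slide as a block, to 7 and 8 within slides 1 and 2, and to 6 under cyclic loess, normexp background correction and the table of the authors.

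**Figure D1:**
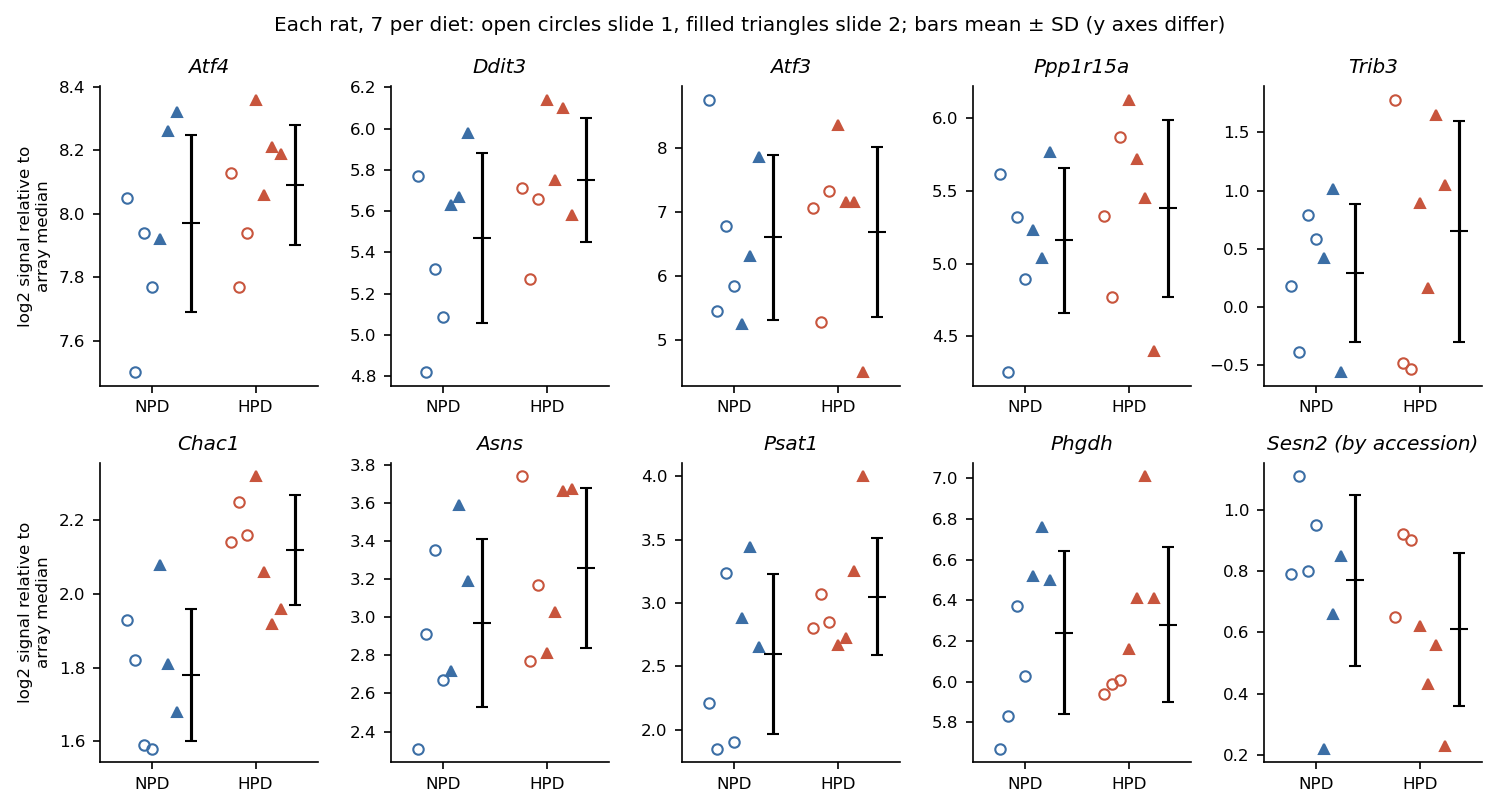
Log2 signal relative to the array median (y axis, its own scale in each panel) of the 9 members and Sesn2 in each rat on the NPD (blue) or HPD (red), with open circles for slide 1, triangles for slide 2 and black bars for the mean ± SD (n = 7). The diets overlap for every gene, Chac1 comes closest to a separation, and Atf3 spreads over a 19.1-fold range.

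Atf4, the transcription factor at the head of the response, differed little between the diets. On the NPD its lowest, median and highest values were 7.5, 7.94 and 8.32, and on the HPD they were 7.77, 8.13 and 8.36. The HPD range lay almost wholly inside the NPD range, with 1 HPD rat above every NPD rat and 2 NPD rats below every HPD rat. The mean was 7.97 ± 0.28 (SD, n = 7) on the NPD and 8.09 ± 0.19 on the HPD, a difference of 0.13 (95% interval from -0.17 to 0.43, limma adjusted p = 0.652). It was 0.08 with slide as a block, 0.13 within slide 1 and 0.04 within slide 2, and it was -0.02 with normexp or the table of the authors. Without NPD replicate 2 it was 0.05 and without HPD replicate 4 it was 0.08. Slide itself changed Atf4, which was 0.31 higher on slide 2 (adjusted p = 0.0486).

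Ddit3 encodes CHOP, a partner of Atf4 that favours cell death when stress lasts. Its values ran from 4.82 through a median of 5.63 to 5.98 on the NPD and from 5.27 through 5.71 to 6.14 on the HPD. The groups overlapped broadly, although 6 of 7 HPD rats stood above the NPD mean. The difference was 0.28 ± 0.19 (SE, 95% interval from -0.12 to 0.68, limma adjusted p = 0.515). It was 0.22 with slide as a block, 0.30 within slide 1, 0.14 within slide 2 and 0.17 without NPD replicate 2, and Ddit3 was 0.43 higher on slide 2 than on slide 1 (adjusted p = 0.0466).

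Ppp1r15a encodes GADD34, the phosphatase subunit that removes the phosphate from eIF2 and so ends the response. On the NPD it ran from 4.25 through 5.23 to 5.77, and on the HPD from 4.40 through 5.45 to 6.13. HPD replicates 4 and 3 were the highest of all 14 rats, while NPD replicate 2 was the lowest and HPD replicate 7 the next above it, so the groups overlapped over most of their range. The difference was 0.22 (95% interval from -0.37 to 0.82, limma adjusted p = 0.694), with 0.19 in the fit with slide as a block, 0.30 within slide 1 and 0.08 within slide 2. It was 0.07 without NPD replicate 2, 0.14 without HPD replicate 3, 0.10 without HPD replicate 4 and 0.39 without HPD replicate 7.

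Atf3, a stress-induced factor that Atf4 activates, varied most. Its values ran from 5.25 through 6.30 to 8.75 on the NPD and from 4.49 through 7.15 to 8.36 on the HPD, an 11.3-fold and a 14.6-fold range within a diet. The highest rat, NPD replicate 1, and the lowest, HPD replicate 7, stood on the sides opposite to the difference of the means. That difference was 0.08 with a 95% interval from -1.27 to 1.43 (limma adjusted p = 0.955), which spans changes beyond 2-fold either way. It was -0.16 within slide 1 and 0.32 within slide 2, and it was below 0 without NPD replicate 2, 4 or 5 or HPD replicate 3 or 4, down to -0.20 without the last.

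Trib3 encodes a pseudokinase that Atf4 induces and that holds Atf4 back. Its values ran from -0.56 through 0.42 to 1.01 on the NPD and from -0.53 through 0.89 to 1.78 on the HPD. HPD replicates 1, 6 and 7 exceeded every NPD rat, while HPD replicates 2 and 3 stood with the lowest NPD rats. The difference was 0.36 (95% interval from -0.47 to 1.18, limma adjusted p = 0.651). It came to -0.03 within slide 1 and 0.64 within slide 2, and a test of the unequal differences gave an unadjusted limma p of 0.411. Over all rats it was 0.17 without HPD replicate 1, 0.19 without HPD replicate 6, 0.21 without NPD replicate 7, 0.54 without HPD replicate 2 and 0.55 without HPD replicate 3.

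Chac1, a glutathione-degrading enzyme induced by Atf4, gave the smallest p of the members. On the NPD it ran from 1.58 through 1.81 to 2.08 and on the HPD from 1.92 through 2.14 to 2.32. All 7 HPD rats were above the NPD mean, 4 were above every NPD rat, and 5 NPD rats were below every HPD rat. The difference was 0.33 ± 0.11 (SE, 1.26-fold; 95% interval from 0.10 to 0.57). Taken alone it gave an exact two-sided permutation p of 0.00524 over the 3432 ways of drawing 7 of the 14 arrays and of 0.00898 over the 1225 regroupings within slides, but the adjusted p over all probes was 0.417 with limma and 0.207 with slide as a block. It was 0.46 within slide 1 and 0.21 within slide 2. Slide left Chac1 nearly level, with a difference of 0.01 between slides (adjusted p = 0.968). Over 33 alternatives, some of which cannot alter a difference, its difference stayed between 0.17 and 0.46. Its lowest adjusted p was 0.103, with normexp and slide as a block. The Chac1 probe had a single spot. Before arrays were centred on their median, its signal ran from 232 to 322 on the NPD and from 207 to 336 on the HPD. The part of the lower array medians on the HPD in the Chac1 difference was not tested.

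**Figure D2:**
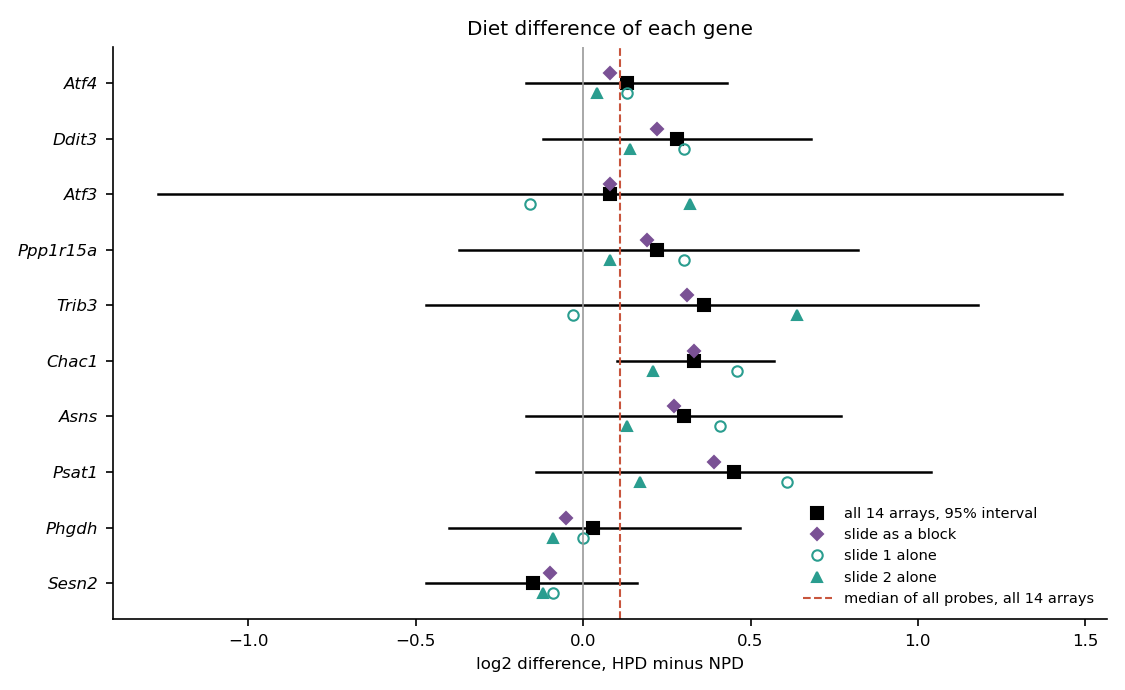
Log2 difference, HPD minus NPD (x axis), of each gene over all 14 arrays (squares, lines for the 95% interval), with slide as a block (diamonds) and within slide 1 (circles) and slide 2 (triangles), and the median of all probes as a dashed line at 0.11. The interval of Chac1, from 0.10 to 0.57, is the one that leaves out 0, and Atf3 and Trib3 have opposite signs in the slides. So has Phgdh, at 0.00229 within slide 1 and -0.09 within slide 2.

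The enzymes of amino acid synthesis were Asns, which makes asparagine, and Phgdh and Psat1, which catalyse the first and second steps of serine synthesis from glycolysis. Asns ran from 2.31 through 2.91 to 3.59 on the NPD and from 2.77 through 3.17 to 3.74 on the HPD, with 3 HPD rats above every NPD rat. Its difference was 0.30 (95% interval from -0.17 to 0.77, limma adjusted p = 0.517), with 0.41 within slide 1, 0.13 within slide 2 and 0.19 without NPD replicate 1. Both groups spread over similar ranges, 2.42-fold on the NPD and 1.95-fold on the HPD.

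Psat1 had the largest difference of the 9 members. It ran from 1.85 through 2.65 to 3.44 on the NPD and from 2.67 through 2.85 to 4.0 on the HPD. All 7 HPD rats exceeded the NPD mean of 2.60, and 4 NPD rats were below every HPD rat, but NPD replicate 6 was above all HPD rats other than replicate 7. The difference was 0.45 ± 0.28 (SE, 1.37-fold; 95% interval from -0.14 to 1.04, limma adjusted p = 0.499). It was 0.39 with slide as a block, 0.61 within slide 1 and 0.17 within slide 2. When single rats were left out it was lowest, at 0.30, without HPD replicate 7.

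Phgdh had nearly equal means on both diets. Its values ran from 5.67 through 6.37 to 6.76 on the NPD and from 5.94 through 6.16 to 7.01 on the HPD, and 4 of 7 HPD rats lay below the NPD mean. The difference was 0.03 (95% interval from -0.40 to 0.47, limma adjusted p = 0.939), and it was -0.05 with slide as a block, -0.11 with normexp, and below 0 without NPD replicate 1, 2 or 4 or HPD replicate 6, down to -0.09 without the last. Slide moved it most among the members, by 0.57 (adjusted p = 0.00813).

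The Sesn2 probe, for a leucine sensor that restrains the growth kinase mTORC1, went the other way. It ran from 0.22 through 0.80 to 1.11 on the NPD and from 0.23 through 0.62 to 0.92 on the HPD, with the HPD range inside that of the NPD. The difference was -0.15 (95% interval from -0.47 to 0.16, limma adjusted p = 0.611). It was below 0 in all 33 alternatives, some of which cannot alter it, with -0.25 without NPD replicate 5 and -0.09 without HPD replicate 7.

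The members did not vary as one set between rats. For each pair of the 9 members a correlation was computed over the 14 rats after removing the mean of each slide and diet, with an exact two-sided permutation test over the 20736 rearrangements within slide and diet and Benjamini-Hochberg adjustment over the 36 pairs. The values share the array's median as their reference. Of the 36 pairs 19 had r above 0, and r ran from -0.72 to 0.91 with a median of 0.13.

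Atf3, Ddit3 and Ppp1r15a rose and fell together from rat to rat. Atf3 and Ppp1r15a had r = 0.91 (rho = 0.93, exact permutation p = 0.000289, adjusted 0.0052, rho p = 0.000241, adjusted 0.00434), and r was 0.87 without the 2 rats farthest from the Atf3 median, 0.90 within slide 1 and 0.93 within slide 2. Ddit3 and Atf3 also had r = 0.91 (rho = 0.93, exact permutation p = 0.000145, adjusted 0.0052, rho p = 9.65e-05, adjusted 0.00347), with 0.91 without the 2 farthest rats, 0.98 within slide 1 and 0.87 within slide 2. For Ddit3 and Ppp1r15a r was 0.83 (rho = 0.86, exact permutation p = 0.00145, adjusted 0.0174, rho p = 0.00101, adjusted 0.0117), with 0.79 without the 2 farthest rats, 0.90 within slide 1 and 0.79 within slide 2. Relative to their own slide and diet, NPD replicate 1 and HPD replicate 4 stood high in these 3 genes, and NPD replicate 2 and HPD replicates 2 and 7 stood low.

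With slide and diet means removed, Atf4 varied with Ddit3 and Atf3, while its relations to the enzymes of amino acid synthesis did not pass. The difference between these correlations was not tested. The relations of Atf4 to the other 8 members and the Sesn2 probe, 9 in all, were adjusted as a family of their own. With Ddit3 it had r = 0.81 (rho = 0.85, exact permutation p = 0.00439, adjusted 0.0395, rho p = 0.0013, adjusted 0.0117), 0.73 without the 2 rats farthest from the Atf4 median, 0.93 within slide 1 and 0.60 within slide 2. With Atf3 it had r = 0.71 (rho = 0.79, exact permutation p = 0.0147, adjusted 0.0662, rho p = 0.00564, adjusted 0.0254), 0.65 without the 2 farthest rats, 0.85 within slide 1 and 0.58 within slide 2. The relation to Ppp1r15a did not pass by r (r = 0.58, rho = 0.65, exact permutation p = 0.0449, adjusted 0.135, rho p = 0.0311, adjusted 0.0932), and r was 0.40 without the 2 farthest rats, 0.83 within slide 1 and 0.29 within slide 2. It did pass under all 6 alternative signals and normalizations, with r from 0.65 to 0.74 and adjusted exact permutation p from 0.0263 to 0.076. Its r was 0.24 with Asns, 0.20 with Psat1, -0.01 with Phgdh, 0.42 with Trib3, -0.18 with Chac1 and 0.05 with Sesn2, with adjusted exact permutation p between 0.417 and 0.974. The slides differed for Sesn2, with r = -0.95 within slide 1 and 0.84 within slide 2, and for Trib3, with 0.65 and 0.02, while the 4 others ran from -0.10 to 0.38 within slide 1 and from -0.28 to 0.30 within slide 2. As a description, the median r of Atf4 with 14919 genes well above background on all arrays was -0.07, and 99.9% of them had a lower r than Ddit3 and 80.9% a lower r than Asns. The 3 genes most like Atf4 by this measure were Adm, a vasodilator peptide (r = 0.93), the claudin Cldn23 (r = 0.88) and LOC298795 (r = 0.86). Without removing slide and diet means, Atf4 had r = 0.9 with Ddit3, 0.5 with Atf3 and 0.59 with Ppp1r15a. Its r was then 0.42 with Asns, 0.51 with Psat1, 0.52 with Phgdh, 0.46 with Trib3, 0.16 with Chac1 and -0.5 with Sesn2. On those values Atf3 stood no closer to Atf4 than Psat1 or Phgdh did.

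Among the enzymes, Asns had r = 0.64 with Phgdh (rho = 0.53, exact permutation p = 0.0199, adjusted 0.102), with 0.66 without the 2 rats farthest from the Asns median, 0.59 within slide 1 and 0.68 within slide 2. With Psat1 it had r = 0.58 (rho = 0.50, exact permutation p = 0.0559, adjusted 0.201). Neither passed over the 36 pairs. In deviations from slide and diet means, Asns and Chac1 ran in opposite directions by r but did not pass by rho (r = -0.72, rho = -0.64, exact permutation p = 0.0104, adjusted 0.0749, rho p = 0.0304, adjusted 0.16). For this pair r was -0.71 without the 2 farthest rats, -0.62 within slide 1 and -0.82 within slide 2. Without removing those means r was -0.09, and both genes had a higher mean on the HPD.

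**Figure D3:**
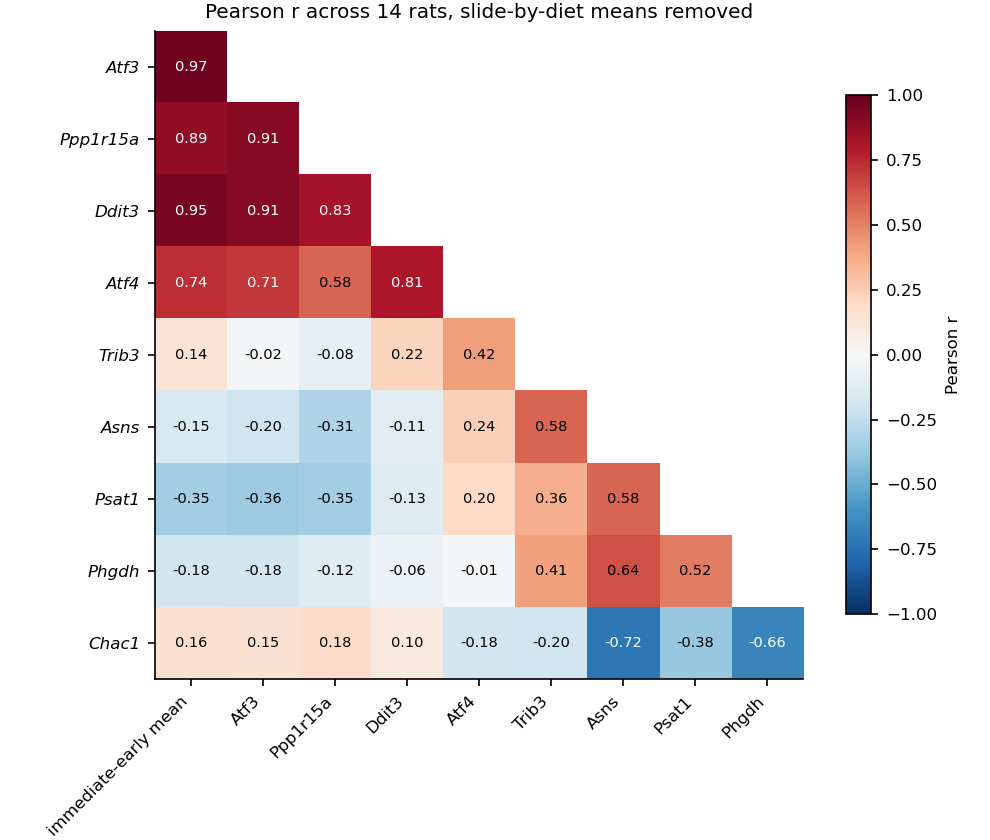
Pearson r (colour and number) across 14 rats between pairs of the 9 members and, in the first column, between each member and the mean of 16 immediate-early and isolation-response genes, after removing the mean of each slide and diet. Atf3, Ppp1r15a, Ddit3 and Atf4 form a block with r between 0.58 and 0.91, apart from Asns, Psat1 and Phgdh (0.52 to 0.64). Without removing those means Atf4 had r = 0.5 with Atf3 and 0.52 with Phgdh.

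Immediate-early genes such as Fos, Jun and Egr1 switch on within minutes of many stimuli, the handling of cells among them. Between rats these varied widely, 8.28-fold for Fos, 6.79-fold for Jun, 9.5-fold for Egr1 and 59.6-fold for the heat shock gene Hspa1b. None of the 16 genes on the array (of 18 listed) was called between the diets, with 6 higher, 10 lower, 0 at an unadjusted limma p below 0.05 and a median difference of -0.07. After these spreads were seen, the mean log2 signal of the 16 genes was set against each of the 10 genes in the same way, with adjustment over 10 relations. It had r = 0.97 with Atf3 (rho = 0.98, exact permutation p = 0.000241, adjusted 0.00121, rho p = 0.000241, adjusted 0.00121), 0.95 with Ddit3 (rho = 0.96, exact permutation p = 4.8e-05, adjusted 0.000482, rho p = 4.8e-05, adjusted 0.000482), where 4.8e-05 is the smallest p that 20736 rearrangements can give. With Ppp1r15a r was 0.89 (rho = 0.89, exact permutation p = 0.000965, adjusted 0.00322, rho p = 0.000868, adjusted 0.00289) and with Atf4 0.74 (rho = 0.81, exact permutation p = 0.0101, adjusted 0.0252, rho p = 0.00376, adjusted 0.0094). Without the 2 rats farthest from the median of that mean these were 0.95, 0.93, 0.85 and 0.80, and within slides 1 and 2 they were 0.97 and 0.98 for Atf3, 0.98 and 0.92 for Ddit3, 0.84 and 0.96 for Ppp1r15a and 0.92 and 0.49 for Atf4. Against the same mean Asns had r = -0.15, Psat1 -0.35, Phgdh -0.18, Trib3 0.14, Chac1 0.16 and Sesn2 0.14, with adjusted exact permutation p between 0.655 and 0.676. Within slides 1 and 2 these were 0.08 and -0.42 for Asns, 0.14 and -0.84 for Psat1, -0.26 and -0.11 for Phgdh, 0.47 and -0.34 for Trib3, 0.20 and 0.14 for Chac1 and -0.82 and 0.79 for Sesn2. The part of cell isolation in these values was not tested.

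**Figure D4:**
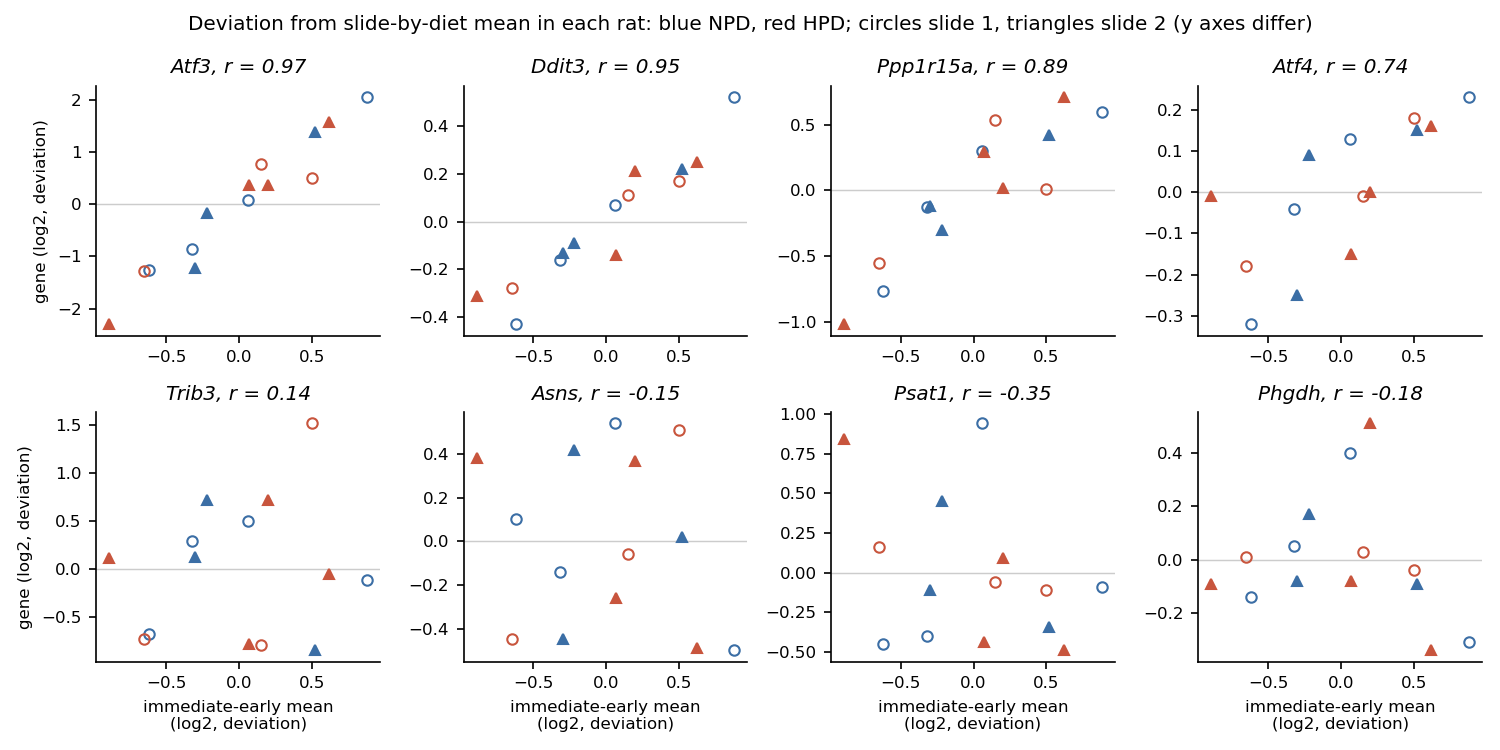
Deviation of 8 members from their slide-and-diet mean in each rat (y axis, log2, its own scale in each panel) against that of the mean of 16 immediate-early and isolation-response genes (x axis, log2), with NPD in blue, HPD in red, circles for slide 1 and triangles for slide 2. The upper row follows the diagonal (r from 0.74 to 0.97) and the lower row does not (r from -0.35 to 0.14).

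The wider pathway was described with 8 lists of 114 genes, of which all but 7 were on the array. None was called, 57 were higher and 50 lower on the HPD, and 11 stood at an unadjusted limma p below 0.05 (10.3%, against 11.4% of all probes). Their median difference was 0.02, against 0.11 over all probes and 0.05 over those well above background.

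Among 13 kinases and eIF2 regulators, 7 were higher, 6 lower, and 3, all lower, stood at an unadjusted p below 0.05. These 3 were subunits of eIF2B, the exchange factor on which the response acts. Eif2b3 ran from 1.90 through 2.22 to 2.57 on the NPD and from 1.23 through 1.41 to 2.19 on the HPD, and all 7 HPD rats were below the NPD mean. Its difference was -0.65 ± 0.17 (SE, limma adjusted p = 0.417), with -0.45 within slide 1 and -0.77 within slide 2, and its other probe gave -0.73. Eif2b1 showed a like pattern, with a difference of -0.59 ± 0.17 (adjusted p = 0.417), -0.43 within slide 1 and -0.62 within slide 2, again with all 7 HPD rats below the NPD mean. For Eif2b4 the difference was -0.36 ± 0.16 (adjusted p = 0.43). With slide as a block in the main fit, these 3 did not pass either, with limma adjusted p from 0.202 to 0.207. The other subunits, Eif2b2 at 0.12 (adjusted p = 0.674) and Eif2b5 at -0.11 (adjusted p = 0.633), stood near 0, and Eif2b5 was called lower (-0.26, adjusted p = 0.0632) with normexp and slide as a block. Eif2b1, Eif2b3 and Eif2b4 were called lower with normexp background correction, with the table of the authors and slide as a block, and with normexp or the median pixel signal together with slide as a block, where adjusted p ran from 0.0249 to 0.0941. In those 4 fits between 10.5% and 27.9% of all features were called, and 0 of the 9 members. Of the other genes of the 8 lists, Got1 and Shmt2 were called lower in the same 4 fits. Further genes were called in some but not all of these fits. Among them were Slc3a2, Atg12, Depdc5, Mtor and Rraga, all lower, and Pmaip1 and Gpt2, both higher. The kinases gave 0.15 for Eif2ak4 (adjusted p = 0.639) and 0.26 for Eif2ak3, the sensor of unfolded protein (adjusted p = 0.444).

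**Figure D5:**
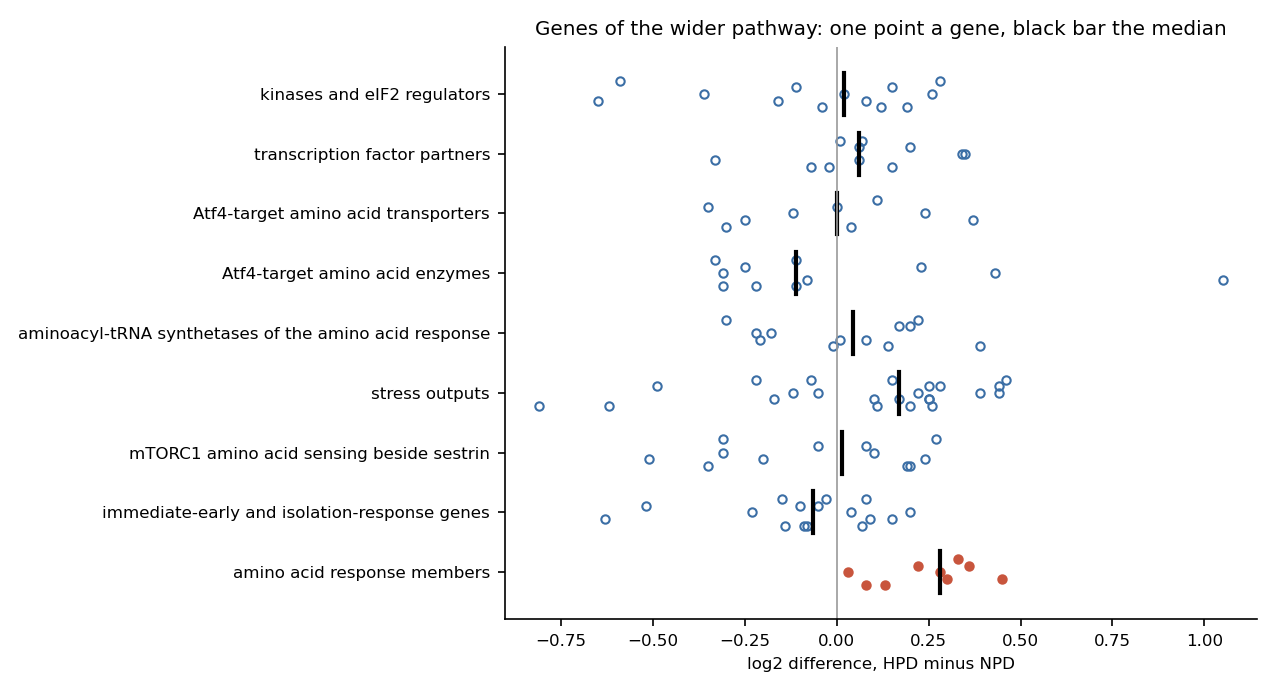
Log2 difference, HPD minus NPD (x axis), of each gene of the 8 pathway lists (open circles) and of the 9 members (red), with a black bar for the median of each list. The medians of the lists run from -0.11 to 0.17 and that of the members is 0.28.

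The list of 11 transcription factors set beside Atf4, not all of them its partners, gave 8 higher and 3 lower with a median of 0.06. The smallest p values belonged to Atf5, a relative of Atf4 (-0.33, adjusted p = 0.464), Atf6, a sensor of the endoplasmic reticulum (0.35, adjusted p = 0.482), and Jdp2, whose probe was not well above background on any array. Cebpb, which pairs with Atf4 on amino acid response elements, was level at 0.01 (adjusted p = 0.951).

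Of 9 amino acid transporters controlled by Atf4, 5 were higher and 4 lower, with a median of 0.00. Slc3a2, the heavy chain shared by several exchangers, was -0.35 (adjusted p = 0.445), and Slc1a5, a glutamine carrier, was -0.25 (adjusted p = 0.515). Slc7a3, also among the 3 smallest p values, was not well above background on any array. Slc7a11, the cystine carrier, was 0.37 (adjusted p = 0.603).

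The 11 enzymes of this kind on the array (of 12) gave 3 higher and 8 lower with a median of -0.11. Got1, which makes aspartate from glutamate, had a difference of -0.31 (adjusted p = 0.425), and Shmt2, the mitochondrial enzyme that converts serine to glycine, one of -0.22 (adjusted p = 0.441). In the 4 fits that called the eIF2B subunits, adjusted p ran from 0.048 to 0.0893 for Got1 and from 0.0428 to 0.0893 for Shmt2. Gpt2, an alanine aminotransferase, was 1.05 with an interval from 0.01 to 2.09 (adjusted p = 0.437), but its other probe gave -0.34. The list of transfer RNA synthetases, which also holds the transfer RNA exporter Xpot, had 12 of 13 genes on the array. It gave 7 higher and 5 lower with a median of 0.05. Aars, which charges alanine transfer RNA, was 0.39 (adjusted p = 0.438), Lars -0.30 (adjusted p = 0.503) and Sars -0.18 (adjusted p = 0.488).

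Stress outputs of the pathway, 23 genes, had the highest median of the lists, 0.17, with 15 higher and 8 lower. Gadd45a, a growth arrest gene, was 0.44 (adjusted p = 0.425), Pmaip1, a pro-death gene well above background on 6 of 14 arrays, was 0.44 (adjusted p = 0.437), and Atg12, an autophagy gene, was -0.62 (adjusted p = 0.417). Gdf15, a secreted sign of the response, was 0.15 (adjusted p = 0.803), and the probe of Fgf21 was not well above background on any array. In the mTORC1 arm, 12 genes on the array of 15 listed, 6 were higher and 6 lower. Depdc5, a brake on mTORC1, was -0.35 (adjusted p = 0.417) with its other probe at 0.40, Mtor was -0.31 (adjusted p = 0.425) and Rraga, which recruits mTORC1 to the lysosome, was -0.51 (adjusted p = 0.441). Among the immediate-early genes the smallest p values were those of Klf6 (-0.52, adjusted p = 0.464), Klf4 (0.20, adjusted p = 0.53) and Dusp1 (-0.63, adjusted p = 0.558).

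Markers of the cell types that a colonocyte preparation can hold were compared as sums of their linear signals relative to the array median, with adjustment over 7 lists. All 10 markers of absorptive colonocytes were well above background, and their sum ran from 4470 to 5480 on the NPD and from 4360 to 6690 on the HPD (exact two-sided permutation test, p = 0.377). The sum of 8 immune markers ran from 21.4 to 58.7 and from 21.3 to 29.4 (exact permutation p = 0.211), and that of 9 stromal and muscle markers, of which Col3a1 and Tagln were not well above background on any array, from 14.0 to 28.9 and from 12.0 to 23.2 (exact permutation p = 0.355). The sum of 4 red blood cell markers ran from 37.8 to 66.9 on the NPD and from 46.3 to 172 on the HPD (exact permutation p = 0.0186), which did not pass after adjustment (0.13). The sums of 6 goblet, 4 enteroendocrine and 4 stem and cycling markers gave exact permutation p of 0.275, 0.834 and 0.572. A sum follows its brightest genes, and the goblet markers ran both ways, 2 higher and 4 lower. Among them Spink4 was 1.82 (limma adjusted p = 0.417) and Clca1 -0.56 (limma adjusted p = 0.429). The part of these cell types in the members' values was not tested, and fewer cells of a type and less RNA per cell cannot be told apart in bulk RNA.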

How the data were processed

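Colonocyte RNA was measured on 1-colour Agilent arrays, 7 per diet, and groups and replicate numbers came from the labels. The authors deposited scanner intensity values from Feature Extraction 10.7.3.1, background-subtracted and detrended, and a second file with normalized log2 values for each gene name. Samples the authors removed as outliers were not analysed here. Outlier and control spots were left out, signals were log2-transformed, spots of a probe averaged and arrays centred on their median. Diets were compared with limma 3.58.1 (R 4.3.3, data.table, version 1.17.8) over 30367 probes without a signal filter, at a q-value below 0.1. The fit was tested on simulated data, where it missed most differences of the smallest size tried, which was above that of any member. The simulation changed few probes and held no slide effect, so the share it missed need not hold in these data. Exact tests used Python 3.11.15 and numpy. The brightest probe stood for a gene, and from each pathway list the 3 genes with the smallest p and any called gene were named, with a few more chosen after their values were seen. The members and lists were chosen with earlier results of these data known. Alternatives were the median pixel signal, 75th percentile centring, quantile, cyclic loess, normexp (offset 50), a background filter, slide or replicate blocks, single slides, the authors' table, an eBayes trend, a q-value below 0.05, the mean of probes and leaving out each array. The number of arrays limits the precision. Columns of other samples numbered 0.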

Additional observations from a re-analysis of the deposited data

Results flagged for a closer look

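No group of a member was flagged by the rule given next, which does not measure the weight of a single rat. Of 92 groups of 7 tested over the 10 genes and the pathway list genes named in the report, 6 had a highest or lowest sample whose gap to its neighbour, as a share of the range, was above Dixon's 95% critical value for 7 samples, and chance flags about 1 in 20 groups. Got1 was highest in NPD replicate 1 (4.18 against 3.47 to 3.72 in the others, gap 0.636 of the range). Klf6 was highest in the same rat (5.81 against 4.17 to 4.82, gap 0.601), which was also the highest of all rats for Atf3. Pmaip1 was lowest in NPD replicate 2 (-2.95 against -2.30 to -1.86, gap 0.595). Eif2ak4 was highest among the NPD rats in replicate 5 (5.44 against 4.65 to 4.95, gap 0.616) and lowest among the HPD rats in replicate 1 (4.40 against 4.95 to 5.30, gap 0.609). Eif2b5 was lowest in NPD replicate 1 (3.65 against 4.06 to 4.29, gap 0.632).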

How the results depend on the processing

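The number of members called was 0 under all 33 alternatives, and Asns, Ddit3, Chac1, Psat1 and Ppp1r15a were higher on the HPD in all 33. Some of these could not differ. The q-value below 0.05, the eBayes trend, the background filter, the replicate block and the mean of probes leave each member's difference unchanged by construction. The q-value below 0.05 also cannot add a call, and the fits that leave out 1 array share most of their data. Reversals concerned genes with a difference near 0 or a wide spread, and the cause was not tested. Atf4 became -0.00269 with cyclic loess, -0.02 with normexp and with the deposited table, -0.03 with that table and slide as a block, -0.06 with normexp and the block, and -0.01 with the median pixel signal and the block. Atf3 became -0.03 (median pixel), -0.01 (cyclic loess), -0.06 (normexp), -0.16 (within slide 1), -0.07 (deposited table), -0.04 (with its block), -0.05 (normexp and block) and -0.01 (median pixel and block). Phgdh became -0.07 (median pixel, quantile), -0.04 (cyclic loess), -0.11 (normexp, deposited table), -0.05 (block), -0.09 (within slide 2), -0.16 (deposited table and block), -0.10 (quantile and block), -0.08 (cyclic loess and block), -0.18 (normexp and block) and -0.13 (median pixel and block). Trib3 became -0.03 within slide 1. Leaving out single arrays moved Atf3 between -0.20 and 0.45, with -0.11 without NPD replicate 2, -0.02 without HPD replicate 3, -0.04 without NPD replicate 4 and -0.14 without NPD replicate 5, and Phgdh between -0.09 and 0.12, with -0.06 without NPD replicate 1, -0.03 without NPD replicate 2 and -0.000143 without NPD replicate 4. Probes called over the array were 17, and 5142 with normexp, 27 with slide as a block, 1 and 0 within slides 1 and 2, 11 with the mean of probes, 2767 with the deposited table and block, and from 9 to 151 without single arrays. Settings added after seeing the data, each with slide as a block, gave 76 (quantile), 40 (cyclic loess), 8479 (normexp) and 3360 (median pixel). Genes of the pathway lists called were 0, and 12 with normexp, with the deposited table and block, and with the median pixel and block, 25 with normexp and block, and 0 to 1 without single arrays, the 1 being Eif2b3 without HPD replicate 1. Replicate numbers did not pair the rats: deviations of same-numbered arrays correlated between -0.156 and 0.662, number 4 spans both slides, and the replicate block called 8 probes and no member. Relations of Atf4 that passed were 2, Ddit3 and Atf3, and 3 under each of the 6 alternatives, which added Ppp1r15a. With 7 rats a group, the intervals of Atf3, Trib3 and Psat1 leave changes beyond 2-fold possible.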
